A study of Mus musculus with 16 samples.

Results

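The collagen genes of the fetal mouse urogenital sinus (UGS) epithelium were examined here in one experiment. They were taken from a table of read counts as every gene whose symbol has the form Col, a number, a and a number. This gave 44 of 55487 genes, which fall by the structure of their protein into 11 fibrillar, 9 basement membrane, 4 membrane-bound and 20 other collagens. Pregnant C57BL/6J mice received TCDD (2,3,7,8-tetrachlorodibenzo-p-dioxin, a ligand of the aryl hydrocarbon receptor) by mouth on embryonic day (E) 13.5, at 5 µg/kg, or corn oil vehicle at 5 mL/kg. Dose and day follow the sample labels and the study's methods. The study's results text gives a later day of dosing, and the design text of the series gives a lower dose. At E16.75, UGSs of male fetuses were treated with trypsin and collagenase, the mesenchyme was pulled away under a microscope, and the epithelium (UGE) of the segment that forms the prostate was kept. Each group had 4 pools, each of 5 or 6 UGEs, and every pool was sequenced on 2 lanes. The labels name no genotype beyond this strain and no other treatment in either group.

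Collagens are triple helices of 3 α chains, and each gene encodes 1 chain. Fibrillar collagens form the cables of connective tissue and are made mainly by mesenchymal cells. Type IV collagen forms the sheet of the basement membrane on which an epithelium rests, and membrane-bound collagens span the surface of the cell, type XVII being the collagen of the hemidesmosomes that fix basal cells to that sheet. During prostate development, epithelial buds grow out of the UGS into the mesenchyme across this layer.

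Depth over both lanes was 22254896 to 26740656 gene counts in TCDD pools and 25917911 to 28146766 in vehicle pools. *Cyp1a1*, the textbook target of the aryl hydrocarbon receptor, stood at 130 to 241 CPM (a gene's counts relative to the total of its library, on one scale for all 8 pools) in TCDD pools and at no more than 0.072 CPM in vehicle pools, so all 8 pools matched their labels. The study removed 1 TCDD pool as an outlier, and the description deposited with its comparison tables names the pool labelled TCDD replicate 1. The differences below therefore come from 7 pools, with the value for all 8 pools beside them where it changes a call. Where nothing else is said, a gene rose or fell when its adjusted p was at most 0.05 by edgeR's quasi-likelihood test with Benjamini-Hochberg adjustment over every tested gene. The labels call the pools biological replicates but do not say how many litters each drew on, so the p-values measure the spread between these pools only.

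Epithelial transcripts dominated every pool. Summed over 9 epithelial markers, the level was 8782 to 9827 CPM in TCDD replicates 2 to 4 and 7993 to 8320 CPM in vehicle pools. Of the 9, 3 rose (*Krt8*, *Krt18* and *Krt19*), 1 fell (*Shh*) and 5 did not pass, also with all 8 pools. Their median log2 fold change was 0.01 in 7 pools. Markers of other cells were present at low levels, and several of them differed with treatment. The 11 mesenchyme markers summed to 133 to 155 CPM in TCDD replicates 2 to 4 and to 198 to 222 CPM in vehicle pools, most of it *Dcn* and *Fbln1*. Of the 7 that could be tested, 5 fell, and 2, *Vim* and *Zeb2*, with all 8 pools. TCDD replicate 1 had 222 CPM, at the top of the vehicle range. The 8 smooth muscle markers summed to 1.13 to 1.93 CPM in TCDD replicates 2 to 4 and to 3.06 to 6.3 CPM in vehicle pools, and TCDD replicate 1 had 6.2 CPM. Leukocyte markers ran the other way, at 20.6 to 34.4 CPM in TCDD replicates 2 to 4 and 12.3 to 23.2 CPM in vehicle pools, with 3 of 6 tested higher, or 1 of 5 with all 8 pools, and TCDD replicate 1 had 17.2 CPM. Schwann cell and neuron markers summed to 7.54 to 8.32 CPM in TCDD replicates 2 to 4, 12.9 CPM in TCDD replicate 1 and 10.6 to 11.7 CPM in vehicle pools, and of 3 tested *Th* fell (log2 fold change -1.28, adjusted p = 2.68e-04, edgeR), though not with all 8 pools (0.155). Endothelial markers summed to 3.71 to 5.93 CPM in TCDD replicates 2 to 4, 11 CPM in TCDD replicate 1 and 4.6 to 6.04 CPM in vehicle pools. Below 1 CPM in every pool were *Twist1* and *Zeb1* of the 11 mesenchyme markers and *Actg2*, *Cnn1*, *Des*, *Lmod1* and *Myocd* of the 8 smooth muscle markers, while *Vim* had 3.56 to 4.23 CPM in TCDD replicates 2 to 4 and 6.65 to 10.9 CPM in vehicle pools, and *Acta2* 0.402 to 0.909 CPM in TCDD replicates 2 to 4 and 1.19 to 3.38 CPM in vehicle pools. In bulk RNA, fewer cells of a type and less RNA per cell cannot be told apart, and the part of these levels in the collagen differences was not tested.

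*Col17a1* and most basement membrane collagens stood above every fibrillar collagen. Levels are compared between genes per length, as RPKM over the exons of each gene. The exceptions were *Col15a1*, *Col4a4* and *Col4a3*, at 0.183, 0.145 and 0.0295 RPKM in the vehicle mean. *Col4a5*, a chain of the type IV network, was the highest in vehicle pools at 64.2 ± 4.45 RPKM, and it averaged 53.3 ± 7.64 RPKM in TCDD replicates 2 to 4 (SD, n = 3 TCDD and 4 vehicle pools here and below). *Col17a1*, the hemidesmosomal collagen, averaged 64.1 ± 3.97 RPKM in TCDD replicates 2 to 4 and 51.3 ± 7.34 RPKM in vehicle pools. These 2 genes exchanged first place between the groups, by gaps of about the sum of their SDs. *Col18a1*, which encodes the precursor of endostatin, followed in both groups at 30.4 ± 4.91 RPKM under TCDD and 36.7 ± 5.82 RPKM under vehicle. Below it in vehicle pools came *Col4a1* at 24.2 ± 5.00 RPKM, *Col7a1*, the anchoring fibril collagen, at 20.1 ± 3.57 RPKM, *Col4a6*, and *Col4a2* at 14.6 ± 2.78 RPKM. Neighbours from *Col4a1* to *Col4a2* in this order differed by no more than the sum of their SDs. In all, 17 of the 44 collagens reached 1 RPKM and 7 reached 10 RPKM in the vehicle mean, and no fibrillar collagen was among those 7. The highest fibrillar collagens were *Col5a1*, at 3.96 ± 0.362 RPKM under TCDD and 6.48 ± 0.331 RPKM under vehicle, and *Col2a1*, at 1.91 ± 0.302 RPKM under TCDD and 5.63 ± 1.55 RPKM under vehicle. These counts and this order depend on the length used. Divided by the longest transcript instead, the vehicle mean was 10.2 RPKM for *Col2a1* and 6.54 RPKM for *Col5a1*. *Col1a2* and *Col11a1* then passed 1 RPKM, at 1.2 and 1.08 RPKM.

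Summed over the 44 genes, collagen transcripts reached 197 to 236 RPKM in TCDD replicates 2 to 4, 233 RPKM in TCDD replicate 1 and 247 to 306 RPKM in vehicle pools. Fibrillar collagens made up 3.84 to 4.92% of this sum in TCDD replicates 2 to 4 and 6.45% in TCDD replicate 1, against 7.68 to 8.9% in vehicle pools. Membrane-bound collagens, nearly all of it *Col17a1*, made up 29.2 to 31% in TCDD replicates 2 to 4 and 24.1% in TCDD replicate 1, against 18.2 to 21.7% in vehicle pools. For both classes the 4 TCDD pools lay on one side of every vehicle pool. The basement membrane class kept the largest share in all pools, at 60.4 to 63.8% in TCDD replicates 2 to 4, 66.7% in TCDD replicate 1 and 63.8 to 69.1% in vehicle pools. Shares sum to a whole, so a lower share of one class raises the others.

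**Figure D1:**
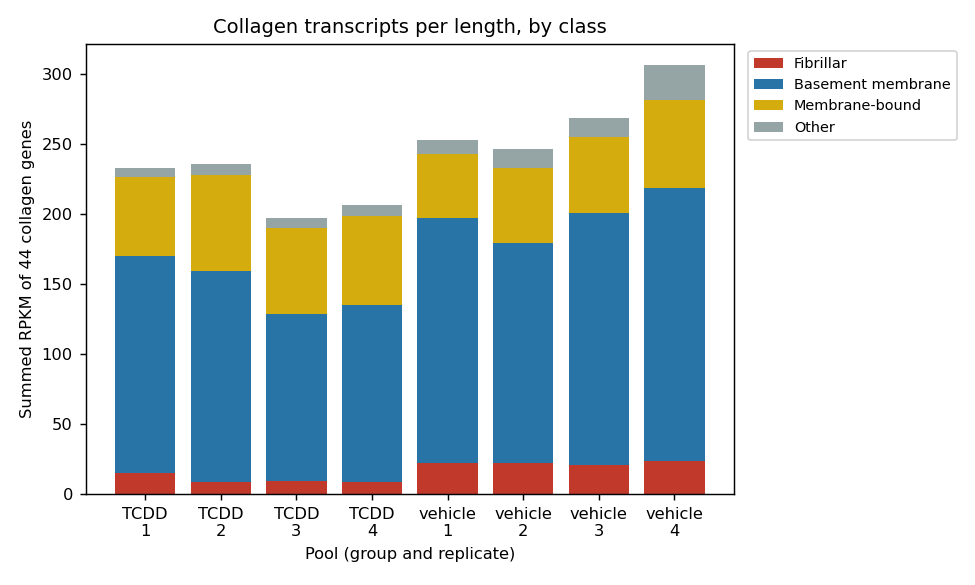
Each bar is 1 pool, and its height is the RPKM summed over the 44 collagen genes, split by class. The fibrillar segment measures 8.8 to 9.7 RPKM in TCDD replicates 2 to 4, 15 RPKM in TCDD replicate 1 and 20.8 to 23.5 RPKM in vehicle pools, while basement membrane collagens fill most of every bar.

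Of the 44 collagens, 30 had enough counts to be tested. TCDD-exposed UGE had 15 collagens that fell, 2 that rose and 13 that did not pass. Over all 14233 tested genes, 11.2% fell and 11.9% rose, 23.0% in either direction. The median log2 fold change (TCDD over vehicle) of the 30 collagens was -0.91, while that of all tested genes was -0.00. It was negative for 27 of the 30, and for 50.4% of all tested genes. Of the 15 that fell, 8 also fell by more than 1.5-fold in edgeR's test against that threshold (TREAT), which 1.44% of all tested genes did. In 16 of the 30, each of TCDD replicates 2 to 4 lay below every vehicle pool, as 15.4% of all tested genes did, and in 1 each lay above every vehicle pool (16.1%). With all 8 pools, 8 of the 30 had every TCDD pool below every vehicle pool (8.28%). In the fit to all 8 pools, 10 collagens fell (6.00% of 14051 tested genes) and none passed as higher (7.41%), where 1 of the 30 had an unadjusted p of at most 0.05 in that direction. DESeq2, run on the summed lanes of the 7 pools, tested 33 collagens and gave 21 lower and 2 higher. Over all genes it gave 1767 lower and 1822 higher. In 13 of the 15 collagens that fell, the removed TCDD pool lay above the other 3 TCDD pools. It lay within the vehicle range for 8 of the 15 and below every vehicle pool for 7. These 15 were called from the other 3 TCDD pools, so these positions depend in part on that choice. The matching shares over all genes that fell were not counted.

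**Figure D2:**
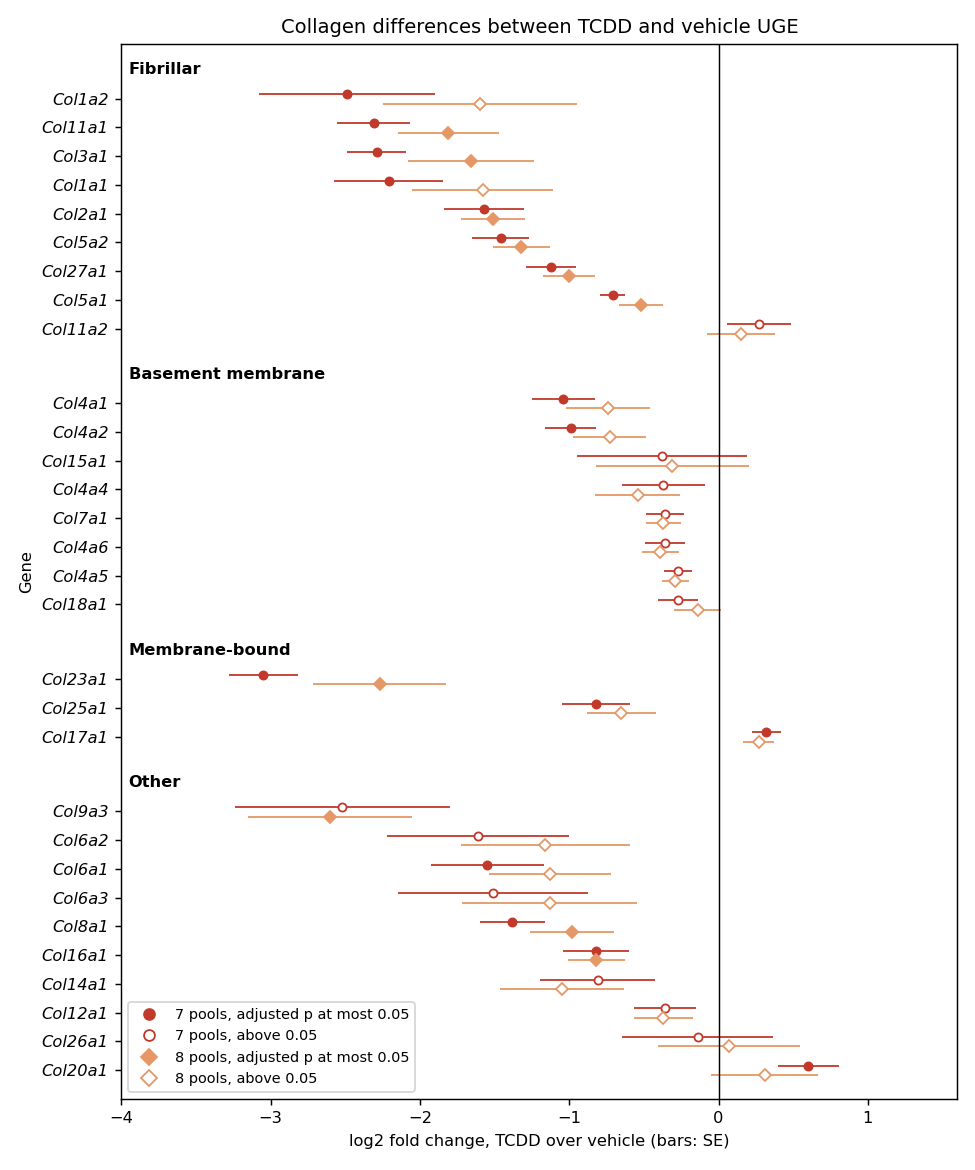
Points give the log2 fold change, TCDD over vehicle, of the 30 tested collagens by class, for 7 pools (circles) and 8 pools (diamonds), and bars give the SE. Filled points have an adjusted p of at most 0.05 (edgeR). In the fibrillar class 8 of 9 circles are filled and left of 0, from -0.71 to -2.49, while 2 of 8 are filled in the basement membrane class.

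Fibrillar collagens fell almost throughout. Of the 9 that could be tested, 8 fell, with a median log2 fold change of -1.57 over the 9, and with all 8 pools 6 of 9 fell, with a median of -1.51. *Col1a1*, *Col1a2* and *Col3a1*, the chains of types I and III collagen that make up most connective tissue fibrils, were lower in TCDD pools by the largest amounts in the class together with *Col11a1*. *Col5a1* and *Col5a2*, chains of the type V collagen that starts fibril assembly, fell as well, as did *Col2a1* and *Col27a1*, collagens best known from cartilage. *Col11a2*, another chain of type XI, was the exception, with 0.27 on the log2 scale (SE 0.21) and no call (adjusted p = 0.41, edgeR).

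*Col3a1* had 24, 7.08, 6.73 and 8.41 CPM in TCDD replicates 1 to 4, against 46.7, 38.2, 25.7 and 34.1 CPM in vehicle replicates 1 to 4. The 4 TCDD pools lay below every vehicle pool, with replicate 1 just under the lowest of them. It fell by 2.29 on the log2 scale (SE 0.20, adjusted p = 1.96e-05, edgeR), and by 1.66 with all 8 pools (adjusted p = 0.0394). *Col1a1* had 7.31, 2.73, 1.6 and 2.31 CPM in TCDD pools, against 14.5, 10.7, 5.01 and 11.2 CPM in vehicle pools. Here TCDD replicate 1 lay above the lowest vehicle pool, and the other 3 lay below all of them. The decrease was 2.21 (SE 0.36, adjusted p = 0.00188, edgeR) in 7 pools and 1.58 in 8, which did not pass (adjusted p = 0.0595). *Col1a2*, the partner chain in type I collagen, had 5.14, 0.965, 1.02 and 1.4 CPM in TCDD pools, against 9.78, 7.81, 1.76 and 6.24 CPM in vehicle pools. Vehicle replicate 3 was low here as it was for *Col1a1*, and TCDD replicate 1 lay between it and the other 3 vehicle pools. *Col1a2* fell by 2.49 (SE 0.59, adjusted p = 0.0191, edgeR). That call was lost without TCDD replicate 2, 3 or 4 (adjusted p = 0.0867, 0.0811 and 0.0695) and with all 8 pools (0.151).

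*Col11a1*, which sets fibril width together with type V, had 4.52, 2.05, 1.38 and 1.55 CPM in TCDD pools, against 9.61, 6.05, 10.3 and 7.18 CPM in vehicle pools. No TCDD pool reached the vehicle range. Its log2 fold change was -2.31 ± 0.24 (SE, adjusted p = 1.33e-05, edgeR), and -1.81 with all 8 pools (adjusted p = 0.00594). *Col2a1*, the main fibrillar collagen of cartilage, had 20.4, 14.9, 20.5 and 17.5 CPM in TCDD pools, against 30.9, 57.5, 57.6 and 62.2 CPM in vehicle pools. The TCDD pools were close to each other, replicate 1 included, and vehicle replicate 1 stood well below the other vehicle pools. *Col2a1* fell by 1.57 (SE 0.27, adjusted p = 0.00535, edgeR) in 7 pools and by 1.51 in 8 (adjusted p = 0.00239). Among the 6 cartilage markers, *Hapln1*, a link protein of cartilage matrix, also fell (log2 fold change -1.93, adjusted p = 1.19e-04, edgeR), *Acan* stood at 0.80 (adjusted p = 0.0906) and *Matn1*, *Matn3*, *Comp* and *Cnmd* were below 1 CPM in every pool.

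*Col5a1* had 53.3, 36.4, 34.1 and 30.3 CPM in TCDD pools, against 56.3, 51, 57.4 and 55.4 CPM in vehicle pools. Its vehicle pools were the tightest of any tested fibrillar collagen, with an SD of 5.11% of their mean, and only TCDD replicate 1 entered their range. The decrease of 0.71 (SE 0.08, adjusted p = 3.71e-05, edgeR) was the smallest in the class that passed. *Col5a2* had 5.4, 3.14, 4.45 and 4.09 CPM in TCDD pools, against 13.1, 11, 10.5 and 8.05 CPM in vehicle pools, with no overlap. It fell by 1.46 (SE 0.19, adjusted p = 9.73e-05, edgeR), more than its partner chain. Per length, the ratio of *Col5a1* to *Col5a2* was 8.37 to 13.1 in TCDD replicates 2 to 4 and 11.1 in TCDD replicate 1, against 4.84 to 7.78 in vehicle pools. Of 7 ratios formed between collagen chains, among them *Col1a1* to *Col1a2* and *Col4a1* to *Col4a2*, this was the only one whose groups did not overlap. *Col27a1* had 14.1, 9.77, 12.9 and 8.98 CPM in TCDD pools, against 20.2, 19.2, 22.5 and 29.5 CPM in vehicle pools. The groups did not overlap, and the decrease was 1.12 (SE 0.17, adjusted p = 4.08e-04, edgeR). With all 8 pools, *Col5a1*, *Col5a2* and *Col27a1* passed as well, at adjusted p = 0.0446, 0.00121 and 0.00353. The remaining 2 fibrillar genes, *Col24a1* and *Col5a3*, had under 1 CPM in every pool and were not tested.

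**Figure D3:**
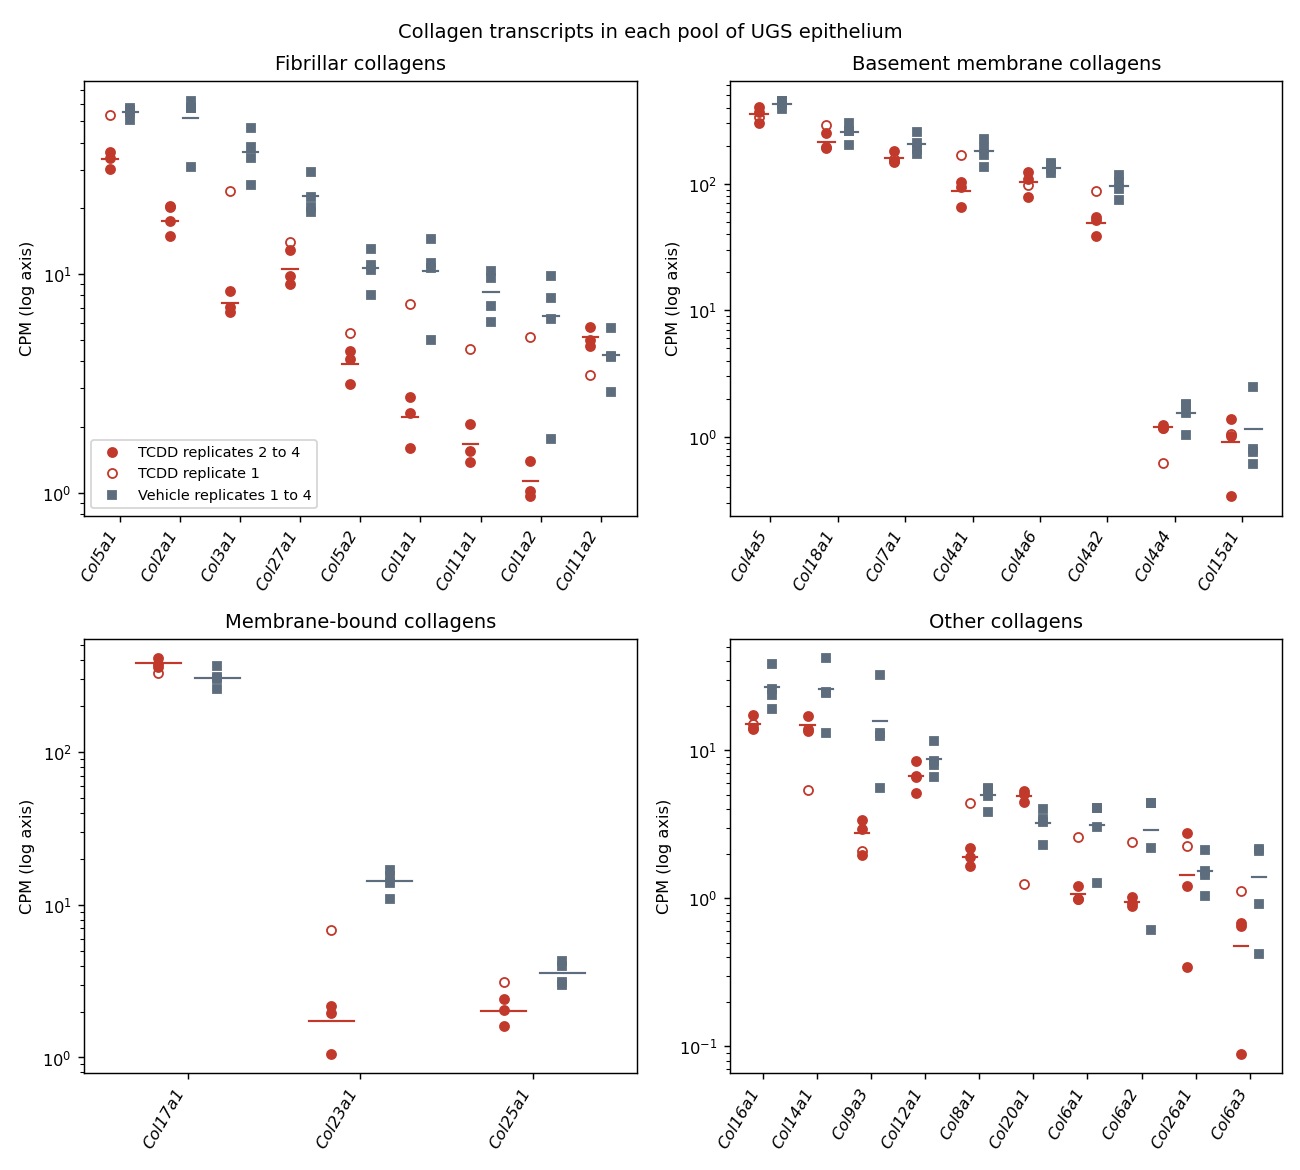
CPM on log axes of the 30 tested collagens in each pool, with 1 panel per class and a line at the mean of each group (TCDD replicates 2 to 4 in red, TCDD replicate 1 as open circles, vehicle in grey). For *Col3a1* the filled red points lie at 6.73 to 8.41 CPM and the open one at 24 CPM, below the vehicle squares at 25.7 to 46.7 CPM.

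The bases upstream of *Col23a1*, *Col11a1* and *Col3a1* are shown, from RefSeq's promoter windows (GRCm38.p6), since with *Col1a2* these were the called collagens with the largest fold changes. The *Col1a2* window lies inside a longer GENCODE model of that gene and is left out. Each line holds the 250 bases before the RefSeq start on the strand of the gene, 5′ to 3′. Capitals mark a match on either strand to one of 4 motifs, TNGCGTG (the core bound by the aryl hydrocarbon receptor with its partner ARNT), the CCAAT box, the GC box GGGCGG and the TATA box TATAAA, and no 2 of these matches overlap.
Col23a1 (chr11:51289670-51289919, plus strand): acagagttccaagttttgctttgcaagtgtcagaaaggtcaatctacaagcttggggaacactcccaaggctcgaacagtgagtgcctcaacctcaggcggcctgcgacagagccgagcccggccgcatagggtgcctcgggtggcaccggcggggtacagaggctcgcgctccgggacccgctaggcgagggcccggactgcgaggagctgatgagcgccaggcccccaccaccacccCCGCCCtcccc
Col11a1 (chr3:114030290-114030539, plus strand): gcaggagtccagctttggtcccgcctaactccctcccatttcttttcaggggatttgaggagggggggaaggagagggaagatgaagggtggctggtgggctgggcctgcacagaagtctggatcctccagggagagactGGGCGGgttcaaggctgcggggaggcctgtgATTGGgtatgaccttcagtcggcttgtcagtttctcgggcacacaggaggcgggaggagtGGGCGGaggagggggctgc
Col3a1 (chr1:45311288-45311537, plus strand): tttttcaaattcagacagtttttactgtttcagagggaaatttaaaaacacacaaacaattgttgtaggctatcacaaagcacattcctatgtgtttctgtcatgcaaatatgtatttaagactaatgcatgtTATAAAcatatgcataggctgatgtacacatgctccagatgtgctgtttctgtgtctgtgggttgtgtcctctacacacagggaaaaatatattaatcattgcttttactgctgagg
No TNGCGTG lies in these letters. The motif was found in 0 of the 38 windows of 35 collagen genes and in 4.1% of all 32851 windows of this length. *Col23a1* has 1 GC box in a window of 66% G and C and *Col11a1* has 2 in a window of 62.4%, while the *Col3a1* window holds 35.2% G and C, no GC box and a TATA box. GC boxes were found in 57.9% of collagen windows and 32.7% of all windows, CCAAT boxes in 34.2 and 33.8%, and TATA boxes in 13.2 and 12.4%. A match describes these letters and is not a measured binding site. No window was given for 9 of the 44 collagens, *Col2a1*, *Col1a1*, *Col5a2*, *Col4a3*, *Col9a3*, *Col14a1*, *Col12a1*, *Col26a1* and *Col22a1*.

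Basement membrane collagens were lower in TCDD pools by less. All 8 that were tested had a negative log2 fold change, with a median of -0.37, and 2 of them fell, *Col4a1* and *Col4a2*. With all 8 pools none of the 8 fell, while 5 of the 8 had an unadjusted p of at most 0.05 in that direction. DESeq2 on the 7 pools called 5 of 9 lower, among them *Col4a5*, *Col4a6* and *Col7a1* (adjusted p = 0.0373, 0.0285 and 0.0181). In edgeR on the 7 pools, these genes also passed with upper-quartile scaling, unscaled library sizes or no filter on low counts.

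*Col4a1* and *Col4a2* encode the α1 and α2 chains of the type IV network found in nearly every basement membrane, 2 of the first and 1 of the second per molecule. *Col4a1* had 168, 94.9, 104 and 65.5 CPM in TCDD pools, against 191, 136, 170 and 225 CPM in vehicle pools. TCDD replicates 2 to 4 lay below every vehicle pool and replicate 1 lay among them. It fell by 1.04 (SE 0.21, adjusted p = 0.0107, edgeR), or 2.05-fold, and by 0.74 with all 8 pools (adjusted p = 0.131). *Col4a2* had 87.4, 55.1, 52 and 39 CPM in TCDD pools, against 104, 74, 90.6 and 117 CPM in vehicle pools. The pools took the same positions as for *Col4a1*, and the decrease was 0.99 (SE 0.17, adjusted p = 0.0028, edgeR), or 0.73 with all 8 pools (adjusted p = 0.0902). Both decreases stayed past the threshold when any 1 of the 7 pools was left out. Per length, the ratio of *Col4a1* to *Col4a2* was 1.49 to 1.77 in TCDD replicates 2 to 4 and 1.62 to 1.71 in vehicle pools. The 2 genes lie head to head on chromosome 8, *Col4a1* at 11198423 to 11312826 on the minus strand and *Col4a2* at 11312805 to 11449287 on the plus strand (GRCm38), so their first exons share 22 bases, which are shown because this pair of genes fell together. They hold 1 GC box, in capitals, and none of the other 3 motifs.
Col4a1 and Col4a2 overlap (chr8:11312805-11312826, plus strand): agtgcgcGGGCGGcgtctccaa

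*Col4a5* and *Col4a6*, which encode the α5 and α6 chains found in the basement membranes of stratified epithelium and smooth muscle, form a second head to head pair on chromosome X, with 1308 bases between them. *Col4a5* had 340, 401, 301 and 372 CPM in TCDD pools, against 390, 429, 453 and 453 CPM in vehicle pools. The groups overlapped through TCDD replicate 2, and the log2 fold change was -0.27 ± 0.09 (SE, adjusted p = 0.0534, edgeR). The call is close to the threshold and passed without TCDD replicate 2 (adjusted p = 0.0168) or vehicle replicate 1 (0.0267). *Col4a6* stood at -0.36 ± 0.14 (adjusted p = 0.0807, edgeR), and at adjusted p = 0.0148 without TCDD replicate 2. Their ratio per length was 3.8 to 4.57 in TCDD replicates 2 to 4 and 3.71 to 3.87 in vehicle pools. Across pools, then, the *Col4a1* pair and the *Col4a5* pair each kept a near constant ratio within the pair (1.71 and 4.16 in TCDD replicate 1). The ratio of *Col4a1* to *Col4a5* ranged over 0.158 to 0.311 in TCDD replicates 2 to 4 and 0.285 to 0.448 in vehicle pools. In TCDD replicate 1 it was 0.446, near the top of the vehicle range.

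*Col18a1* had 291, 253, 196 and 192 CPM in TCDD pools, against 303, 204, 263 and 261 CPM in vehicle pools. The groups overlapped, and its log2 fold change was -0.27 ± 0.14 (SE, adjusted p = 0.186, edgeR), which passed without TCDD replicate 2 (adjusted p = 0.0429) or vehicle replicate 2 (0.0327). *Col7a1*, whose protein anchors the basement membrane to the tissue beneath, stood at -0.36 ± 0.13 (adjusted p = 0.0592, edgeR) and also passed without TCDD replicate 2 (0.0439) or vehicle replicate 1 (0.0123). The 2 lowest tested members, *Col15a1* and *Col4a4*, lay between 0.341 and 2.47 CPM in all pools, with log2 fold changes of -0.38 and -0.37 that did not pass. *Col4a3*, whose start lies 71 bases from that of *Col4a4* on chromosome 1, had at most 0.471 CPM and was not tested.

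The membrane-bound collagens went in both directions. *Col23a1*, a transmembrane collagen, had the largest fold change of the 30 collagens tested in 7 pools, and the second largest, after *Col9a3*, in 8. It had 6.82, 2.17, 1.96 and 1.06 CPM in TCDD pools, against 15.4, 16.9, 13.8 and 10.9 CPM in vehicle pools. Each TCDD pool lay below every vehicle pool, replicate 1 being the closest to them. *Col23a1* fell by 3.05 on the log2 scale (SE 0.23, adjusted p = 8.44e-07, edgeR), or 8.29-fold, and by 2.27 with all 8 pools (adjusted p = 0.0114). *Col25a1*, a brain collagen that is also needed by muscle-innervating motor axons, had 3.1, 2.41, 1.6 and 2.05 CPM in TCDD pools, against 4.26, 2.99, 3.14 and 3.95 CPM in vehicle pools. It fell by 0.82 (SE 0.23, adjusted p = 0.0178, edgeR), with TCDD replicates 2 to 4 below every vehicle pool. The call was lost without TCDD replicate 3 or 4 (adjusted p = 0.0715 and 0.0646) and with all 8 pools (0.0857).

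*Col17a1* had 329, 411, 363 and 381 CPM in TCDD pools, against 258, 302, 309 and 365 CPM in vehicle pools. It was higher in TCDD pools on average, but vehicle replicate 4 lay within the TCDD range. The rise was small, 0.32 on the log2 scale (SE 0.10, adjusted p = 0.0326, edgeR), or 1.25-fold, and did not pass with all 8 pools (adjusted p = 0.113). It passed without vehicle replicate 4, and was lost without any other of the 7 pools, at adjusted p = 0.113, 0.0533 and 0.1 without TCDD replicates 2, 3 and 4 and 0.0804, 0.075 and 0.0809 without vehicle replicates 1, 2 and 3. The 8 genes of the hemidesmosome list, its partners in that junction, were all tested and none passed, with 2 at an unadjusted p of at most 0.05, both lower, and 1 called lower by DESeq2. *Itgb4*, the integrin chain that marks the junction, had a log2 fold change of -0.26 ± 0.13 (adjusted p = 0.166, edgeR), and *Dst*, a plakin of its inner plaque and the gene DESeq2 called, -0.34 ± 0.12 (adjusted p = 0.0616, edgeR). *Col13a1*, the fourth membrane-bound collagen, had at most 0.145 CPM and was not tested.

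The 20 other collagens comprise 9 that attach to fibril surfaces (FACIT collagens), 6 of the beaded filament kind, 3 that form networks and 2 outside these kinds. Of the 10 tested, 3 fell, 1 rose and 6 did not pass, with a median log2 fold change of -1.10, and with all 8 pools 3 fell and none rose. *Col16a1*, a FACIT collagen, had 15, 17.3, 14.2 and 13.9 CPM in TCDD pools, against 19.1, 23.6, 25.9 and 38.3 CPM in vehicle pools. The groups did not overlap. It fell by 0.82 in 7 pools (SE 0.22, adjusted p = 0.0283, edgeR) and by 0.82 in 8 (adjusted p = 0.0179), and was lost without TCDD replicate 2, 3 or 4 or vehicle replicate 3 (adjusted p = 0.055, 0.109, 0.121 and 0.0573). *Col9a3*, a chain of the FACIT collagen of cartilage fibrils, had 2.08, 1.97, 3.39 and 2.92 CPM in TCDD pools, against 5.56, 12.4, 13 and 32.2 CPM in vehicle pools. Its groups did not overlap either, but the vehicle pools were far apart, with an SD of 72.2% of their mean. The log2 fold change was -2.52 ± 0.72 (SE, adjusted p = 0.0566, edgeR), and it fell by 2.60 with all 8 pools (adjusted p = 0.0181). Without vehicle replicate 1 or 4 it also passed, at adjusted p = 0.015 and 0.00336.

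*Col8a1*, a short-chain network collagen of vessel walls and the cornea, had 4.38, 1.65, 2.18 and 1.89 CPM in TCDD pools, against 5.56, 5.47, 4.93 and 3.84 CPM in vehicle pools. TCDD replicates 2 to 4 lay below every vehicle pool and replicate 1 above the lowest. It fell by 1.38 (SE 0.22, adjusted p = 3.91e-04, edgeR) and by 0.98 with all 8 pools (adjusted p = 0.0397). *Col6a1*, a chain of the beaded filaments found around cells of connective tissue, had 2.57, 1.21, 0.98 and 0.985 CPM in TCDD pools, against 3.04, 4.07, 1.26 and 4.06 CPM in vehicle pools. Vehicle replicate 3 was close to the TCDD pools, as it was for *Col1a2*. The decrease of 1.55 (SE 0.38, adjusted p = 0.00951, edgeR) was lost without TCDD replicate 4 (adjusted p = 0.0546) and with all 8 pools (0.095). Its partner chains *Col6a2* and *Col6a3* had log2 fold changes of -1.61 ± 0.61 and -1.51 ± 0.63 that did not pass in 7 pools (adjusted p = 0.0974 and 0.121, edgeR) and did without vehicle replicate 3 (0.00118 and 0.0278).

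*Col20a1*, a FACIT collagen, had 1.24, 4.46, 5.26 and 5.04 CPM in TCDD pools, against 3.25, 2.27, 3.4 and 4.02 CPM in vehicle pools. TCDD replicates 2 to 4 lay above every vehicle pool and replicate 1 below all of them. The rise of 0.60 (SE 0.21, adjusted p = 0.0485, edgeR) sat at the threshold and was lost with all 8 pools (adjusted p = 0.635). It was lost without any 1 of the 7 pools but vehicle replicate 4, at adjusted p = 0.057, 0.131 and 0.143 without TCDD replicates 2, 3 and 4 and 0.0825, 0.122 and 0.0895 without vehicle replicates 1, 2 and 3. Its exons overlap those of another annotated gene on the same strand, BX649560.1, so its counts are uncertain. Exons of *Col3a1* and *Col7a1* also overlap a microRNA gene each on the same strand, *Gm47302* and *Mir711*, with an effect on their counts that was not measured. *Col14a1*, a FACIT collagen of soft connective tissue, stood at -0.81 ± 0.39 (adjusted p = 0.203, edgeR), and passed without vehicle replicate 1 (0.00918), and *Col12a1*, its close relative, at -0.36 ± 0.21 (adjusted p = 0.244). *Col26a1* stood at -0.14 ± 0.51 (adjusted p = 0.876), and its direction turned with the pools used.

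The 14 collagens not tested all averaged below 1 CPM in both groups, and the highest value of any in a pool was 1.41 CPM, for *Col9a2* in a vehicle pool. They include the α3 chain of type IV, the α1 and α2 chains of type IX and 3 of the 6 beaded filament genes. *Col10a1*, the collagen of hypertrophic cartilage, had 0 counts in every pool, where 3 counts would be 0.107 to 0.135 CPM. *Col9a2* had 0.664, 0.402, 0.312 and 0.227 CPM in TCDD pools, against 1.08, 0.612, 0.612 and 1.41 CPM in vehicle pools. TCDD replicates 2 to 4 lay below every vehicle pool. Named after its values were seen, *Col9a2* fell in each alternative that tested it over the 7 pools. Adjusted p was 0.0223 with DESeq2, and in edgeR 0.00819 with no filter and 0.0206 with the lanes summed. It also fell without TCDD replicate 2 (adjusted p = 0.0367, edgeR). Of the 6 alternatives that tested any of the 14, 4 called it. None of the other 13 was called in any alternative run, and most had too few counts to show a difference.

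Genes that make, bind and break down collagen fell in TCDD pools more often than they rose, though only 2 breakdown genes were tested. Over all tested genes 11.2% fell and 11.9% rose, and 6.00 and 7.41% with all 8 pools. Of 34 genes for the processing of collagen chains, 24 were tested, of which 9 fell and 1 rose, with a median log2 fold change of -0.45, and with all 8 pools 6 fell. *Serpinh1*, which encodes the collagen chaperone HSP47, had 284, 181, 200 and 152 CPM in TCDD pools, against 285, 260, 306 and 287 CPM in vehicle pools. TCDD replicate 1 lay at the vehicle level and the other 3 well below it, and the decrease was 0.68 in 7 pools (SE 0.09, adjusted p = 1.14e-04, edgeR) and 0.48 in 8 (adjusted p = 0.0883). *Pxdn*, the peroxidasin that crosslinks type IV collagen, fell by 0.61 (adjusted p = 1.30e-04, edgeR), *Bmp1*, which trims procollagen ends, by 0.48 (2.94e-04) and *P4ha2*, a prolyl hydroxylase subunit, by 0.63 (0.00165). Those 3 also fell with all 8 pools, at adjusted p = 0.0144, 0.00548 and 0.024. *P4hb*, the other subunit of that enzyme and a general disulphide isomerase, was the one that rose, by 0.26 (adjusted p = 0.00768, edgeR), and did not pass in 8 pools (0.0651). *Lox*, which crosslinks fibrils, had at most 1.11 CPM in any pool and was not tested.

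Of 10 collagen receptors, 6 were tested and 3 fell. *Itga1*, the α chain of the α1β1 integrin that binds collagen, had 1.64, 1.69, 0.713 and 1.48 CPM in TCDD pools, against 7.34, 5.54, 8.45 and 5.98 CPM in vehicle pools. No TCDD pool, replicate 1 included, came near the vehicle range, and it fell by 2.37 (SE 0.27, adjusted p = 2.16e-05, edgeR) in 7 pools and by 2.29 in 8 (adjusted p = 2.08e-04). *Mrc2*, an endocytic receptor for collagen, fell by 1.19 (adjusted p = 8.15e-05, edgeR), also with all 8 pools (0.00679). *Ddr1*, the discoidin domain receptor of epithelia, fell by 0.35 (adjusted p = 0.00999, edgeR) and did not pass in 8 pools (0.431), *Itga2* had a log2 fold change of 0.46 (adjusted p = 0.0914), and *Ddr2*, the mesenchymal counterpart of *Ddr1*, had too few counts to be tested. Of 7 collagen-degrading enzymes, only *Mmp14* and *Mmp2* were tested, and they fell by 0.32 (adjusted p = 0.011, edgeR) and 0.47 (0.0116). With all 8 pools *Mmp14* passed (0.0458) and *Mmp2* did not (0.24).

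**Figure D4:**
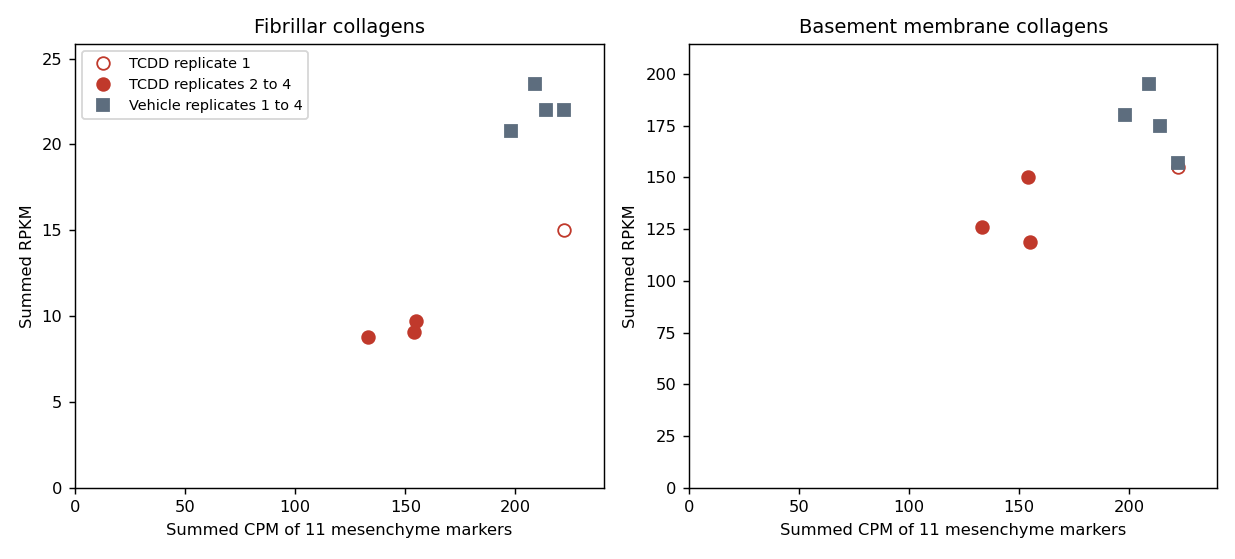
Each point is 1 pool, with the summed CPM of 11 mesenchyme markers on the x axis and the summed RPKM of fibrillar (left) or basement membrane (right) collagens on the y axis. TCDD replicate 1 (open circle) has 222 CPM of mesenchyme markers, as much as the highest vehicle pool, and 15 RPKM of fibrillar collagens, which lies between the other TCDD pools (8.8 to 9.7 RPKM) and the vehicle pools (20.8 to 23.5 RPKM).

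The sum of the 11 mesenchyme markers, most of it *Dcn* and *Fbln1*, was at the vehicle level in TCDD replicate 1, as were some collagens. The vehicle pools were mixed, and the part of this level in the collagen differences was not tested. In TCDD replicate 1, the sums of mesenchyme and smooth muscle markers were at the top of the vehicle range, though *Vim* (5.36 CPM) and *Zeb2* (1.82 CPM) lay below every vehicle pool, and the endothelial sum of 11 CPM was above all other pools. In this pool *Col1a1*, *Col1a2*, *Col5a1*, *Col6a1*, *Col8a1*, *Col4a1*, *Col4a2* and *Col25a1* were within the vehicle range. In that same pool, *Col2a1*, *Col3a1*, *Col5a2*, *Col11a1*, *Col27a1*, *Col23a1* and *Col16a1* lay below every vehicle pool. These 2 groups were read off after the values were seen, and they describe 1 pool. Among vehicle pools, replicate 3 had the lowest sum of mesenchyme markers, 198 CPM. It was the lowest vehicle pool for 9 of the 30 tested collagens, among them *Col1a1*, *Col1a2*, *Col3a1* and *Col6a1*, and the highest for 4, *Col5a1*, *Col11a1*, *Col4a5* and *Col4a6*. Vehicle replicate 2 had the highest sum, 222 CPM. That pool was the lowest for 10, among them *Col5a1*, *Col27a1*, *Col11a1*, *Col4a1* and *Col4a2*, and the highest for 2, *Col23a1* and *Col6a1*. Vehicle replicate 1, at 214 CPM, was the lowest for 8 and the highest for 9, among them *Col1a1*, *Col1a2* and *Col3a1*. Vehicle replicate 4, at 209 CPM, was the lowest for 3 and the highest for 15.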

How the data were processed

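The collagens, their classes and the gene lists were chosen with earlier results of these data known. Per the study's methods, the authors trimmed paired reads, aligned them with HISAT2 2.1.0 to GRCm38.p6 and made the deposited counts per gene with HTSeq 0.12.4 on the reverse strand. The deposited comparison tables of fold changes and p-values were not used. Lines of the count table that name no gene held 17.4 to 20.1% of reads and were left out. The 2 lanes of a pool differed by no more than sampling noise (chi-square per gene 0.995 to 1.03), so they were averaged and counted as 1 sample. Genes were filtered with filterByExpr (minimum count 10), scaled by TMM and tested with edgeR 4.0.16 (robust quasi-likelihood), without TCDD replicate 1, as in the study, and with all 8 pools. Printed CPM use the 8-pool scaling, RPKM divide by the union of a gene's exons (GENCODE, GRCm38), and fold changes are fitted values. Per-pool values are given for collagens called in 7 or 8 pools and the 2 highest of each class. Of each gene list, up to 4 genes with the smallest adjusted p and 5 of known role (*Serpinh1*, *Ddr1*, *Ddr2*, *Itgb4*, *Lox*) could be named. Alternatives were other scalings, no filter, DESeq2 1.42.0, summed lanes, a replicate block and leaving out each pool. Protein sequences were not used here.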

Additional observations from a re-analysis of the deposited data

Results flagged for a closer look

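In 7 of the 60 groups of 4 pools formed by the 30 tested collagens, 1 pool stood apart from the other 3 by more than Dixon's 95% critical value for the gap over the range. Chance gives about 1 in 20 such groups if they are independent, which groups drawn from the same 8 pools are not. TCDD replicate 1 was the pool apart in 5 of the 7. The study removed that pool as an outlier in these same data, so this count is no independent check of it. TCDD replicate 1 was high for *Col3a1* (24 CPM, the other TCDD pools at 6.73 to 8.41), *Col1a2* (5.14 CPM, others 0.965 to 1.4), *Col6a1* (2.57 CPM, others 0.98 to 1.21) and *Col6a2* (2.39 CPM, others 0.891 to 1.02), and low for *Col4a4* (0.62 CPM, others 1.17 to 1.25). Vehicle replicate 1 was low for *Col2a1* (30.9 CPM, the other vehicle pools at 57.5 to 62.2). Vehicle replicate 4 was high for *Col15a1* (2.47 CPM, others 0.612 to 0.804).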

How the results depend on the processing

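With no filter on low counts 22 collagens and 20 listed genes fell, and with DESeq2 21 of 33 and 17 of 45 (15 and 14 in edgeR with the filter). More genes were tested in both runs, and over all genes 1815 fell with no filter and 1767 with DESeq2 (1588 in edgeR with the filter). In all 8 pools, 0 collagens rose (2 in 7 pools) and 2 fell by more than 1.5-fold (0.448% of all tested genes, and 8 in 7 pools). Of the 4 pathway lists together, 0 genes rose in edgeR (1 in 7 pools, and 1 in 8 at an unadjusted p of at most 0.05) and 9 fell (14), and over all tested genes 1041 rose (1688) and 843 fell (1588). With upper-quartile scaling, unscaled library sizes or summed lanes, 1 collagen rose. Same-numbered TCDD and vehicle pools had deviations correlated at 0.39, -0.07, -0.15 and 0.14, and differently numbered pools at -0.39 to 0.30. So few values cannot show whether the numbers pair the pools. With the replicate block, 0 collagens rose in 7 pools and 1 in 8, 18 and 16 fell, and in 8 pools with the block 9 listed genes fell, 1109 of all genes rose and 979 fell. In 7 pools *Col14a1* and *Col9a3* passed with the block (adjusted p = 6.11e-05 and 1.59e-05, edgeR). So did *Col6a3*, *Col6a2*, *Col7a1* and *Col4a5* (adjusted p = 0.00467, 0.0233, 0.0236 and 0.0329, edgeR). *Col4a1*, *Col4a2* and *Col25a1* no longer passed as lower (0.14, 0.0524 and 0.0667). Leaving out 1 pool at a time gave 0 to 2 collagens higher, 11 to 19 lower and 4 to 9 lower by more than 1.5-fold (4 without TCDD replicate 2 or 4). It gave 1 to 2 listed genes higher and 11 to 16 lower, and 1189 to 1633 of all genes higher and 1061 to 1639 lower. Of the 17 called collagens, 8 kept their call in each of the 17 alternatives run (*Col2a1*, *Col3a1*, *Col5a1*, *Col5a2*, *Col11a1*, *Col27a1*, *Col23a1* and *Col8a1*). Direction turned only for collagens that did not pass, *Col26a1* (0.07 in 8 pools, and -1.01 to 0.34 with 1 pool left out, positive without TCDD replicate 4 or vehicle replicate 1) and *Col15a1* (-0.80 to 0.28, positive without TCDD or vehicle replicate 4). The cause of these shifts was not tested. Fewer than 3 counts per pool, about 0.107 to 0.135 CPM, cannot be told from 0, and with 3 or 4 pools per group small changes in low collagens may be missed.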
